A study of Mus musculus with 16 samples.

Results

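Interferon-induced genes are the genes that cells switch on after interferon binds its receptor, and 37 of them were followed here in artery tissue from mice that lacked Apoe, with or without Mif. They were listed by name as type I and type II interferon-induced genes, with earlier results of these data known. All 37 had a row among the 55356 named genes of the count table. They comprise 4 transcription factors (Irf7, Irf9, Stat2 and Irf1), 23 antiviral genes of the Ifit, Oas, Mx and Isg kind, and 10 genes of the interferon-gamma type, which are guanylate-binding proteins, immunity-related GTPases and the peptide transporter and proteasome subunits of antigen presentation. After a filter on low counts 23 of the 37 could be tested, namely 4 factors, 12 antiviral genes and 7 genes of the gamma type.

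The study measured polyadenylated RNA in frozen sections of the brachiocephalic artery, the first vessel to leave the aortic arch and a common site of plaques in mice with high plasma cholesterol. The 16 libraries came from 16 female mice in 4 groups of 4: Apoe-/- mice after 24 weeks of a Western-type diet, Apoe-/-Mif-/- mice after 24 weeks, Apoe-/- mice after 42 weeks and Apoe-/-Mif-/- mice after 42 weeks. Every mouse thus lacked apolipoprotein E, which clears lipoproteins from plasma, and ate the same diet (0.2% cholesterol, 21.2% fat) once it was 6 weeks old, so that no group had normal plasma lipids or a chow diet. Mif encodes the inflammatory cytokine macrophage migration inhibitory factor; neither the strain background nor littermate status is given in the sources used here. Each library pooled lysate from 3 to 4 frozen sections of 5 µm of the whole vessel of 1 mouse, labelled as mixed cells, and was amplified from 1 ng of RNA by Smart-seq2, a full-length method without molecular identifiers or strand information.

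Type I interferons signal through a receptor that activates a complex holding STAT2 and IRF9, which binds the interferon-stimulated response element in the promoters of antiviral genes. Interferon-gamma, made mainly by T and NK cells, acts through its own receptor on promoters that hold the gamma-activated sequence; IRF1 is among the first genes it induces and switches on antigen presentation genes in turn. IRF7 is induced by interferon and drives more interferon production. Both kinds of interferon are known to act on macrophages of atherosclerotic plaques.

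The promoters of the list held these elements in a larger share than promoters in general. The core of the response element, read as GAAA, any 2 bases and GAAA on either strand, was present in 17 of the 33 RefSeq promoters of members (51.5%; 300 bases each, 250 before and 50 after the annotated start), against 3.44% of all 32851 promoters. The gamma-activated sequence, TTC, any 3 bases and GAA, which reads the same on both strands, was present in 10 of the 33 (30.3%) against 8.30% of all. The 33 promoters belong to 29 members; the other 8 have no entry in the table. No response element core was found in these windows for Irf7, Irf9, Irf1, Oasl1, Oasl2, Tap1, Psmb9, Psmb8, Ifi44, Trim25, Ifi35 or Ifit2. A match is a description of the letters and shows no binding.

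The windows below are those of members whose values are described further on, 5′ to 3′ on the gene's own strand and ending at or before the annotated start, from RefSeq with build GRCm38.p6. Capitals mark the response element core (which reads TTTC, 2 bases, TTTC where it lies on the other strand), and overlapping cores run together. Isg15 had 3 such overlapping cores (chr4:156200845-156200926, minus strand), Oas1a had 2 (chr5:120907526-120907575, minus strand) and Irgm1 had 2 (chr11:48871421-48871480, minus strand). Igtp (chr11:58199492-58199555, plus strand), Gbp2 (chr3:142620574-142620643, plus strand) and Stat2 (chr10:128270248-128270315, plus strand) had 1 each.
Isg15: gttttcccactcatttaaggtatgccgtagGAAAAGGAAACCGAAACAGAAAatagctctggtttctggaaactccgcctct
Oas1a: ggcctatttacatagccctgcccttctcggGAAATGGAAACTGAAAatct
Irgm1: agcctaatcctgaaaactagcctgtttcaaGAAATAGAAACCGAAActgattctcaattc
Igtp: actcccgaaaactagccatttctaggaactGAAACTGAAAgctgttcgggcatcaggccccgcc
Gbp2: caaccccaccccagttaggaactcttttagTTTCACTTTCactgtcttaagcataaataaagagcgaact
Stat2: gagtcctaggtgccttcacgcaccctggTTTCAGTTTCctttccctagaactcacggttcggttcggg

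Ifit3 (chr19:34583343-34583446, plus strand) and its neighbour Ifit3b (chr19:34607739-34607842, plus strand) are shown because their 104 bases are identical. These bases lie before the annotated starts, so their identity does not bear on how reads are split between the genes. Each holds 2 cores.
Ifit3: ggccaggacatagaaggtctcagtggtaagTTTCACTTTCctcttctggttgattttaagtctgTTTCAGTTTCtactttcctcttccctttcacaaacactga
Ifit3b: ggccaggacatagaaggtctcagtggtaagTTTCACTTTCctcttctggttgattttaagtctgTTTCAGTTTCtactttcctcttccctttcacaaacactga

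Irf1 (chr11:53769894-53769962, plus strand) and Psmb8 (chr17:34198068-34198136, plus strand) lacked the response element core and held the gamma-activated sequence, here in capitals.
Irf1: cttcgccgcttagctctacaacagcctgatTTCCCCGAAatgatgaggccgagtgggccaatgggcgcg
Psmb8: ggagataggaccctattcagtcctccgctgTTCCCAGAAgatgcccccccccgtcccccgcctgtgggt

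Library size ranged from 378066 counts (Apoe-/- library 1 at 42 weeks) to 8649525 (Apoe-/- library 3 at 24 weeks), and 14 to 34 of the 37 members had at least 1 count in a library. A count of 0 allows a level of up to 6.32 CPM (counts scaled to 1000000 per library after TMM scaling) in the shallowest library and 0.327 CPM in the deepest, for counting error alone. Mif, the deleted gene, averaged 141 and 160 CPM in Apoe-/- mice at 24 and 42 weeks and 12.8 and 9.35 CPM in the deleted mice (exact permutation test of log2(CPM + 1), two-sided p = 0.0286 at each duration, the smallest that 4 against 4 can give). Smooth muscle and endothelial markers, 7 of 7 each, and all 14 macrophage markers had counts in every group. Some libraries stood apart in markers of other cell types. Apoe-/- library 1 at 24 weeks had 13600 CPM of brown adipocyte markers, and Apoe-/- library 4 at 24 weeks had 5180 CPM of T and NK cell markers and 694 CPM of thymocyte markers. At 42 weeks Apoe-/- library 2 had 20100 CPM of erythroid markers, and Apoe-/-Mif-/- library 2 had 19800 CPM of white and 4530 CPM of brown adipocyte markers. By the column names, the 4 Apoe-/-Mif-/- libraries at 24 weeks lay in plate row C, apart from the 12 of row B, so that plate row and group cannot be told apart for them. In these bulk samples, fewer cells of a type and less RNA per cell cannot be told apart either.

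Few members were detected in every artery. Counts were found in all 16 libraries for 12 of the 37, and at least 10 counts in every library for 5: Irf1, Ifi27l2a, Bst2, Ifitm3 and Psmb8. By contrast, 12 members reached 10 counts in fewer than 4 libraries. Per kilobase of exon (lengths from GENCODE M21, build GRCm38, since the authors' annotation is not given in the sources used here), the median level over 16 libraries was highest for Ifi27l2a at 642 CPM per kb, followed by Ifitm3 at 477.2, Bst2 at 190.9, Psmb8 at 37.5 and Ifi35 at 27.4. Irf1 stood at 7.43, while Irf7, Irf9 and Stat2 stood at 1.26, 1.55 and 1.41 CPM per kb. The heat map of all members shows these 5 rows, at varying levels, among many that are bright in 1 or 2 libraries.

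**Figure D1:**
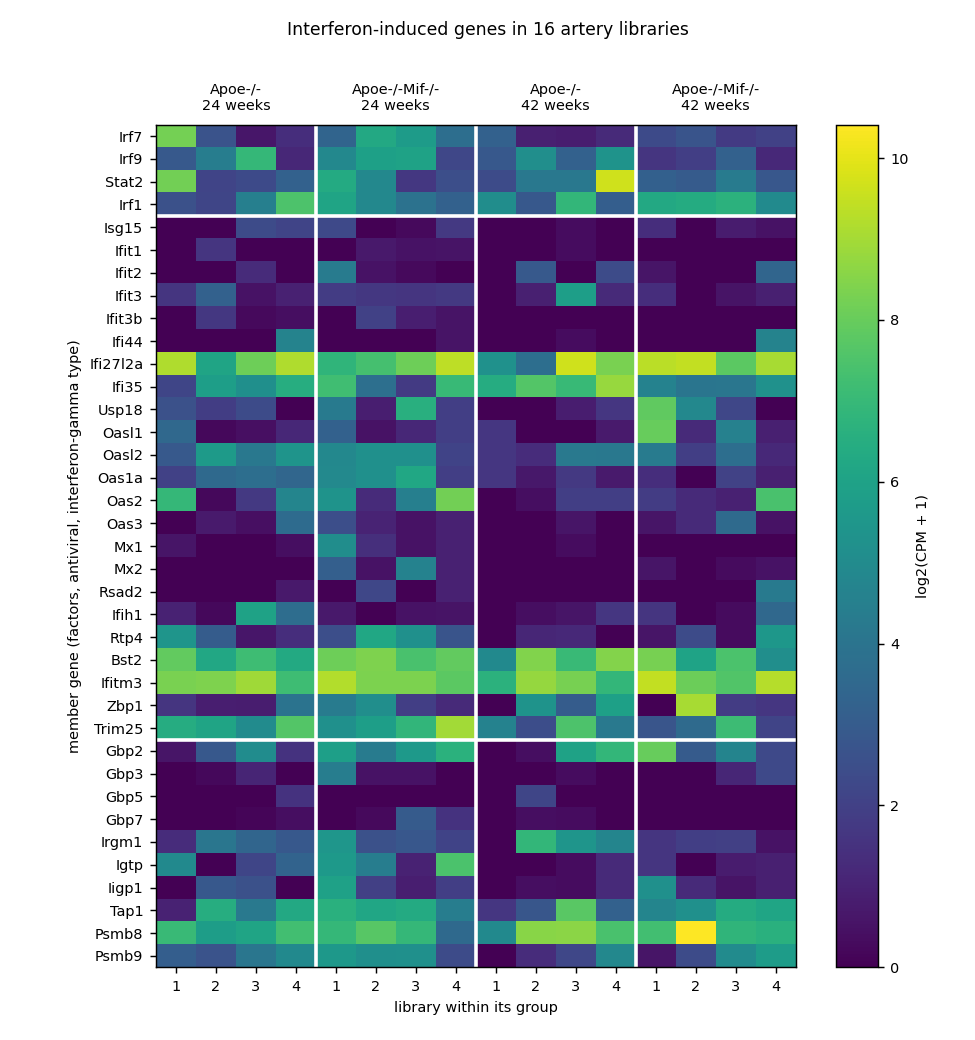
Level of each of the 37 interferon-induced genes as log2(CPM + 1) (colour) in the 16 libraries (columns, 4 per group, split by white lines), ordered by class. Ifi27l2a, Ifitm3 and Bst2 have counts in all libraries, with lowest values of 12.7, 101 and 29.5 CPM. Most Ifit, Mx and Gbp rows are dark except in single libraries.

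Among the transcription factors, Irf7, the factor that amplifies interferon production, was high in some libraries of both genotypes at 24 weeks and low in all 8 at 42 weeks. Its CPM in libraries 1 to 4 was 302, 5.40, 0.544 and 1.56 in Apoe-/- mice and 9.17, 77.3, 51.3 and 12.5 in Apoe-/-Mif-/- mice at 24 weeks. At 42 weeks it was 8.43, 0.886, 0.780 and 1.40 in Apoe-/- and 4.11, 5.57, 2.40 and 3.01 in Apoe-/-Mif-/- mice. Library 1 of the Apoe-/- mice at 24 weeks alone held 62.1% of the CPM summed over libraries.

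Stat2, which carries the activating domain of the type I complex, was likewise carried by few libraries. It stood at 296, 3.38, 4.03 and 8.44 CPM in Apoe-/- and 81.9, 27.7, 2.23 and 4.63 in Apoe-/-Mif-/- mice at 24 weeks. The 42-week values were 4.21, 16.8, 17.1 and 817 in Apoe-/- and 8.22, 6.96, 19.4 and 6.02 in Apoe-/-Mif-/- mice, so that 1 Apoe-/- library held 61.7% of the summed CPM. Irf9, which gives that complex its DNA contact, ranged from 1.25 to 120 CPM in Apoe-/- and from 3.70 to 63.5 in Apoe-/-Mif-/- mice at 24 weeks, and from 6.32 to 39.8 and from 1.29 to 8.38 at 42 weeks.

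Irf1, the early factor of the gamma response, was present throughout without an order among the groups. Its libraries had 5.05, 3.55, 21.8 and 183 CPM in Apoe-/- and 66.1, 28.1, 14.0 and 8.33 in Apoe-/-Mif-/- mice at 24 weeks. At 42 weeks they had 33.7, 6.21, 118 and 7.67 in Apoe-/- and 76.0, 85.0, 103 and 31.0 in Apoe-/-Mif-/- mice. All 4 groups overlapped.

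The antiviral genes held 3 abundant members, some at middling levels such as Ifi35 and Trim25 (medians of 47.4 and 46.7 CPM), and many sparse ones. Ifitm3, a membrane protein that blocks viral entry, had 318, 335, 485 and 145 CPM in Apoe-/- and 593, 329, 330.0 and 219 in Apoe-/-Mif-/- libraries at 24 weeks. It had 101, 428, 309 and 116 in Apoe-/- and 703, 267, 189.9 and 604 in Apoe-/-Mif-/- libraries at 42 weeks. The group means of 321 ± 139, 368 ± 159, 239 ± 158 and 441 ± 251 (SD, n = 4) overlapped throughout.

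Bst2, which encodes tetherin, a protein that holds budding virus at the cell surface, had 238, 75.5, 146 and 78.5 CPM in Apoe-/- and 276, 340.5, 169 and 239 in Apoe-/-Mif-/- libraries at 24 weeks. The libraries at 42 weeks had 29.5, 345, 132 and 358 in Apoe-/- and 308, 65.5, 175 and 34.8 in Apoe-/-Mif-/- mice. Within each pair of groups the ranges overlapped. Bst2 is also 1 of 7 listed markers of plasmacytoid dendritic cells. Of the 7, 6 had counts in Apoe-/- mice at 24 weeks and 5 in each other group, Klk1 was at 0 in all 16 libraries, and their sum ranged from 202 to 788 and from 419 to 650 CPM at 24 weeks and from 179 to 479 and from 114 to 542 CPM at 42 weeks. Ifi27l2a ranged from 66.9 to 582 CPM and from 112 to 655 in Apoe-/- and Apoe-/-Mif-/- mice at 24 weeks, and from 12.7 to 814 and from 222 to 702 at 42 weeks.

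Isg15, the ubiquitin-like protein that names the class, was close to absent. Its counts summed to 70 over all libraries, and its CPM was 0, 0, 4.25 and 3.44 in Apoe-/- and 3.93, 0, 0.203 and 2.31 in Apoe-/-Mif-/- mice at 24 weeks. At 42 weeks it was 0, 0, 0.260 and 0 in Apoe-/- and 1.54, 0, 0.718 and 0.430 in Apoe-/-Mif-/- mice. A value of 0 appeared in 7 of 16 libraries.

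Ifit3, of a family that binds foreign RNA, had 2.02, 8.44, 0.435 and 0.938 CPM in Apoe-/- and 2.62, 2.26, 2.03 and 2.31 in Apoe-/-Mif-/- mice at 24 weeks. At 42 weeks the values were 0, 0.886, 55.9 and 1.40 in Apoe-/- and 1.54, 0, 0.479 and 0.860 in Apoe-/-Mif-/- mice, with 68.1% of the sum in 1 Apoe-/- library. Its copy Ifit3b was at or under 3.08 CPM in all 16 libraries. Since 31.7% of the 100-base windows of Ifit3 occur also in Ifit3b, the split of reads between them is uncertain.

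In all, 16 of the 37 members had over 50% of their summed CPM in a single library. They were 7 of the 23 that passed the filter, where 18.7% of all genes tested did, and 9 of the 14 that did not. For genes that did not pass, no share over all genes was computed. The median share of the highest library was 34.2% over the 23 tested members and 32.2% over all genes tested. The highest share was that of Mx1, an antiviral GTPase, with 51 counts (33.4 CPM) in Apoe-/-Mif-/- library 1 at 24 weeks, 8, 2 and 2 counts in the other 3 libraries of that group and 1 count in each of 3 Apoe-/- libraries. Its relative Mx2 had 116 counts (23.5 CPM) in library 3, 12, 2 and 2 in libraries 1, 2 and 4 of the same group, 1 count in each of 3 Apoe-/-Mif-/- libraries at 42 weeks and none in the 8 Apoe-/- libraries. Both thus had most of their counts in Apoe-/-Mif-/- mice at 24 weeks, but in different mice.

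Rsad2, which encodes the antiviral enzyme viperin, had 43 counts in Apoe-/-Mif-/- library 4 at 42 weeks, 18 and 2 in libraries 2 and 4 of that genotype at 24 weeks, 2 in Apoe-/- library 4 at 24 weeks and 0 in the other 12. Ifit1 had 12 counts in Apoe-/- library 2 at 24 weeks, 3, 2 and 1 in Apoe-/-Mif-/- libraries 2 to 4 at 24 weeks, 1 in Apoe-/- library 3 at 42 weeks and 0 in the other 11. Zbp1, a sensor of Z-form nucleic acids, had 2.02, 0.844, 0.762 and 14.7 CPM in Apoe-/- and 19.0, 34.2, 2.84 and 1.39 in Apoe-/-Mif-/- mice at 24 weeks and 0, 40.2, 7.28 and 59.3 and 0, 526, 2.63 and 2.15 at 42 weeks. The 526 CPM lay in library 2 of the Apoe-/-Mif-/- mice at 42 weeks, which had the highest sum of white adipocyte markers (19800 CPM). That library also had 34200 CPM of macrophage markers, where Apoe-/- library 2 at 42 weeks had 37500 CPM. The next white adipocyte sums were 7930, 7080 and 6370 CPM. They lay in Apoe-/- library 3 at 42 weeks, Apoe-/- library 1 at 24 weeks and Apoe-/-Mif-/- library 1 at 42 weeks. Zbp1 stood at 7.28, 2.02 and 0 CPM there. Rsad2, Ifit1 and Zbp1 each had a different highest library.

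Ifih1, the RNA sensor MDA5, had 582 of its counts in Apoe-/- library 3 at 24 weeks; the CPM was 1.01, 0.169, 63.4 and 12.2 in that group and 0.655, 0, 0.406 and 0.463 in Apoe-/-Mif-/- mice at 24 weeks, then 0, 0.295, 0.520 and 2.09 and 2.06, 0, 0.239 and 10.3 at 42 weeks. Of the guanylate-binding proteins that did not pass the filter, Gbp5 had 6 counts in Apoe-/- library 4 at 24 weeks, 12 in Apoe-/- library 2 at 42 weeks and none elsewhere. Gbp3 had 31, 2 and 2 counts in Apoe-/-Mif-/- libraries 1 to 3 at 24 weeks, 1 and 10 in Apoe-/- libraries 2 and 3 at 24 weeks, 1 in Apoe-/- library 3 at 42 weeks, and 5 and 9 in Apoe-/-Mif-/- libraries 3 and 4 at 42 weeks. Gbp7 had 34 counts in Apoe-/-Mif-/- library 3 at 24 weeks, 1 and 4 in libraries 2 and 4 of that group and 1 count in each of 4 Apoe-/- libraries. No library was the highest for more than 4 members.

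The other members that did not pass the filter were Ifit2, Ifi44 and Oas3. Ifi44 had 78 counts in Apoe-/- library 4 at 24 weeks and 57 in Apoe-/-Mif-/- library 4 at 42 weeks against at most 1 elsewhere. Ifit2 reached 19.0 CPM and Oas3, an oligoadenylate synthetase, 11.6 CPM at most. Of the other tested antiviral genes, Oasl2 ranged from 1.29 to 50.6 CPM over all libraries, Rtp4 from 0 to 73.6 and Trim25, a ubiquitin ligase of RNA sensing, from 3.44 to 494. The plot of single-library shares sets all members on 1 scale.

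**Figure D2:**
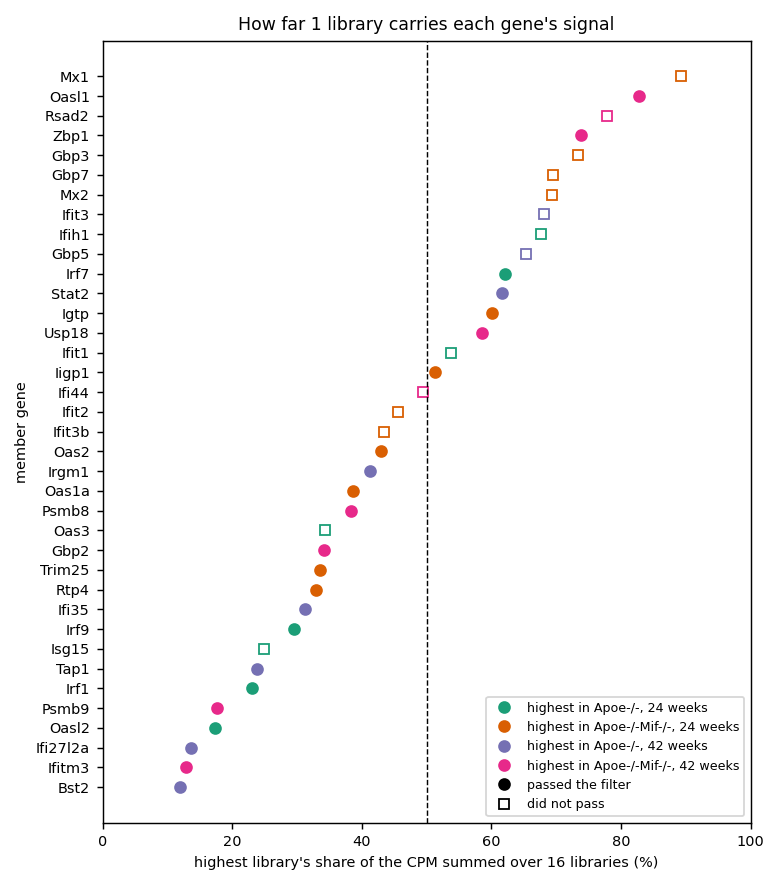
Share of each gene's CPM, summed over 16 libraries, that lay in its highest library (x axis, %), coloured by the group of that library; filled circles passed the filter and open squares did not. To the right of the dashed line at 50% lie 16 of the 37 members, from Iigp1 at 51.3% to Mx1 at 89.2%.

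Of the gamma-type genes, those of antigen presentation were the most widely expressed. Psmb8, a catalytic subunit of the immunoproteasome, had 133, 54.2, 66.8 and 154 CPM in Apoe-/- and 120.5, 209, 120.5 and 10.6 in Apoe-/-Mif-/- mice at 24 weeks. At 42 weeks it had 29.5, 373, 392 and 171 in Apoe-/- and 150.5, 1361, 111 and 96.8 in Apoe-/-Mif-/- mice. Library 2 of the latter, again the one highest in white adipocyte markers, stood far above the others. It also had 34200 CPM of macrophage and 6300 CPM of erythroid markers, and the part of cell makeup was not tested. An overlapping gene on the opposite strand, Gm20496, covers 14.7% of its exon bases, and without strand information the 2 cannot be told apart there.

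Tap1, which moves peptides into the endoplasmic reticulum, had 1.01, 88.5, 17.4 and 77.5 CPM in Apoe-/- and 96.9, 71.2, 82.2 and 20.4 in Apoe-/-Mif-/- mice at 24 weeks. The values at 42 weeks were 2.11, 5.91, 216 and 8.37 and 25.7, 36.2, 84.8 and 68.8 in the same order of genotypes. Its neighbour Psmb9, another immunoproteasome subunit, averaged 14.6 ± 11 and 30.7 ± 18.2 CPM (SD, n = 4) in Apoe-/- and Apoe-/-Mif-/- mice at 24 weeks and 8.25 ± 13.2 and 22.4 ± 25.0 at 42 weeks. All groups overlapped for both genes.

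Correlations were computed for 4 pairs of members that form a complex, share a promoter region or are near copies, among them these neighbours. Across 16 libraries log2(CPM + 1) of Tap1 and Psmb9 had a Pearson r of 0.476 (permutation p = 0.0622, adjusted over 8 p-values 0.382) and a Spearman rho of 0.429 (permutation p = 0.0976, adjusted 0.382). Without the 2 libraries farthest from the Tap1 median r was 0.345, and within the 12 libraries of plate row B it was 0.364. The pair overlaps by 212 exon bases on opposite strands, so that some reads belong to either. Psmb8 and Psmb9, which are assembled in the same proteasome, had r = 0.053 and rho = -0.068. Stat2 and Irf9 had r = 0.168 and rho = 0.041, and Ifit3 and Ifit3b had r = 0.227 (0.417 without the 2 libraries farthest from the Ifit3 median) and rho = 0.384. The adjusted permutation p of these 3 pairs was 0.382 or above, so that no pair passed.

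The first comparison asks what loss of Mif did after 24 weeks of diet. No member passed the test at an adjusted p of 0.05 (edgeR quasi-likelihood test, Benjamini-Hochberg over 10634 genes, of which 0.0470% were called). No member had groups that did not overlap, where 3.84% of all genes did. At an unadjusted p under 0.05 there were 0 of 23 members, against 7.33% of all genes, and DESeq2 called 0 members and 1.97% of all genes. DESeq2 gave no adjusted p for 4 of the 23 (Stat2, Zbp1, Iigp1 and Psmb8) in any of the comparisons, so these 4 could not be called by it. The fitted log2 difference was positive for 18 of the 23 and for all 7 gamma-type genes, with a median of 0.77 over the 23, 1.06 over the gamma type and 0.91 over the 12 antiviral genes, beside -0.18 over all genes tested. The filter was rerun with each library left out, so the members that passed could differ from the 23. Their median was 0.17 without Apoe-/-Mif-/- library 1, 0.45 without library 2 and 0.38 without library 4 of that group. A gene could pass the filter through the group in which it was high, so these counts describe the genes that passed and lend no support to a direction.

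Gbp2, a guanylate-binding protein that attacks the vacuoles of intracellular pathogens, had 0.505, 6.25, 32.4 and 1.88 CPM in Apoe-/- and 58.3, 19.3, 48.1 and 100.4 in Apoe-/-Mif-/- libraries at 24 weeks. The means were 10.3 ± 15 and 56.5 ± 33.6 CPM (SD, n = 4), and 1 Apoe-/- library reached into the other group's range. The fitted log2 difference was 2.44 (SE 1.58, edgeR adjusted p = 0.831). At 42 weeks its values were 0, 0.295, 62.6 and 118 in Apoe-/- and 252, 6.96, 24.7 and 3.87 in Apoe-/-Mif-/- mice.

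Usp18, which removes ISG15 from proteins and damps the type I receptor, had 5.05, 2.7, 4.25 and 0 CPM in Apoe-/- and 18.3, 0.820, 94.6 and 2.77 in Apoe-/-Mif-/- libraries at 24 weeks. Its log2 difference of 3.27 (SE 1.80, edgeR adjusted p = 0.761) was 1.26 without Apoe-/-Mif-/- library 3. Igtp, an immunity-related GTPase, had 29.8, 0, 3.48 and 9.06 and 47.1, 20.1, 1.01 and 175 CPM in the same groups, with a log2 difference of 2.53 (SE 1.66, edgeR adjusted p = 0.839) that was 0.98 without Apoe-/-Mif-/- library 4. Iigp1, of the same GTPase family, had 0, 6.25, 5.01 and 0 and 61.6, 2.87, 0.812 and 2.77 CPM at 24 weeks and 0, 0.295, 0.260 and 1.40 and 36.0, 1.39, 0.479 and 0.860 at 42 weeks. In each of these 3 genes a single Apoe-/-Mif-/- library at 24 weeks held more than the other 3 together.

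Averaged over the 23 tested members, log2(CPM + 1) lay between 3.67 and 4.31 in the Apoe-/- libraries and between 4.40 and 5.59 in the Apoe-/-Mif-/- libraries at 24 weeks, while the average over all tested genes lay between 3.86 and 4.29 and between 3.70 and 4.13. Over all 37 members the ranges were 2.49 to 3.10 and 3.03 to 4.14 and overlapped. The 23 can include genes that passed the filter through the group in which they were high, so their separate ranges lend no support to a difference. The Apoe-/-Mif-/- libraries at 24 weeks also lay in plate row C, apart from the others. At 42 weeks the 23 members averaged 2.31 to 4.39 in Apoe-/- and 3.59 to 4.38 in Apoe-/-Mif-/- libraries. Beside the 24-week values, macrophage markers (14 of 14 detected) summed to 2110 to 18200 CPM in Apoe-/- and 9340 to 20200 CPM in Apoe-/-Mif-/- libraries, and T and NK cell markers (13 and 12 of 13 detected) to 7.77 to 5180 and 20.1 to 208 CPM. Brown adipocyte markers (5 and 3 of 5 detected) summed to 37.7 to 13600 and 77.9 to 121 CPM, white adipocyte markers (6 and 5 of 6) to 30.7 to 7080 and 11.8 to 548, and striated muscle markers (7 and 7 of 7) to 61.6 to 5080 and 485 to 1660. All 9 tested T and NK cell markers and all 5 brown and 5 white adipocyte markers had negative fitted differences (medians -3.61, -7.81 and -4.58). So did 5 of 7 striated muscle markers (median -5.90), while 12 of 14 macrophage markers had positive ones (median 0.88). Called by edgeR were 3 striated muscle markers and 1 white adipocyte marker, beside 0.0470% of all genes. The part of cell makeup in these values was not tested.

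Loss of Mif after 42 weeks went with large differences in both directions, none past the threshold. In edgeR 0 of 23 members were called, as were 0% of all genes, and 7 members had an unadjusted p under 0.05 (Oasl1, Usp18, Oas2 and Rtp4 with higher means, Stat2, Irgm1 and Ifi35 with lower means in Apoe-/-Mif-/- mice) where 17.3% of all genes had one. DESeq2, run as an alternative, called 4 members, Oasl1, Usp18, Irgm1 and Ifi35, and 8.48% of all genes. The median log2 difference of the 23 was 0.83 (15 positive, 8 negative) beside 0.09 over all genes.

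Oasl1, an oligoadenylate synthetase-like protein known in mice to limit translation of Irf7, had the smallest p. It had 2.11, 0, 0 and 0.698 CPM in Apoe-/- and 255, 1.39, 22.8 and 0.860 in Apoe-/-Mif-/- libraries at 42 weeks, with 2 and 595 counts per group. The ratio of the count rates was 297 (exact 95% interval 81.8 to 2460, counting error only), and the fitted log2 difference was 7.23 (SE 2.28, edgeR adjusted p = 0.176). Libraries 1 and 3 of the Apoe-/-Mif-/- mice were high and libraries 2 and 4 were within the Apoe-/- range. At 24 weeks Oasl1 had 10.6, 0.169, 0.327 and 1.25 CPM in Apoe-/- and 8.51, 0.410, 1.22 and 2.77 in Apoe-/-Mif-/- libraries.

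Usp18 had 0, 0, 0.780 and 2.09 CPM in Apoe-/- and 230.1, 27.9, 3.59 and 0 in Apoe-/-Mif-/- libraries at 42 weeks (log2 difference 6.37, SE 2.13, edgeR adjusted p = 0.176). Its highest library, number 1, was also the highest for Oasl1; without it the log2 differences were 3.66 for Usp18 and 3.92 for Oasl1. Oas2 had 0, 0.295, 2.86 and 2.79 and 2.57, 1.39, 0.958 and 172 CPM, and 1 Apoe-/-Mif-/- library held nearly all of it (log2 difference 4.75, SE 1.91, edgeR adjusted p = 0.207).

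Of the 8 members with a negative difference at 42 weeks, Ifi35, Irgm1 and Stat2 had an unadjusted p under 0.05. Ifi35, a cytoplasmic partner of NMI, had 86.4, 196, 129 and 447 CPM in Apoe-/- and 23.6, 15.3, 16 and 37.8 in Apoe-/-Mif-/- libraries. It was the only 1 of the 23 whose groups did not overlap, where 2.20% of all genes had groups apart. Its fitted log2 difference was -3.20 (SE 1.26, edgeR adjusted p = 0.206; DESeq2 adjusted p = 0.0453). At 24 weeks the libraries had 3.54, 56.9, 35.6 and 88.8 CPM in Apoe-/- and 147, 12.9, 2.44 and 128 in Apoe-/-Mif-/- mice and overlapped. A gene on the opposite strand, Gm11626, covers 16.8% of its exon bases.

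Irgm1, a GTPase of autophagy and defence against bacteria, had 0, 117, 42.1 and 25.8 CPM in Apoe-/- and 2.06, 2.79, 2.87 and 0.430 in Apoe-/-Mif-/- libraries at 42 weeks. The 0 in the shallowest Apoe-/- library kept the groups from separating (log2 difference -4.50, SE 1.73, edgeR adjusted p = 0.198; DESeq2 adjusted p = 0.0184). At 24 weeks it had 1.51, 15.9, 9.58 and 6.25 and 43.2, 4.92, 6.09 and 3.24 CPM. Stat2 had a log2 difference of -4.38 (SE 1.64, edgeR adjusted p = 0.188), which was -0.33 without Apoe-/- library 4. Beside these values, macrophage markers summed to 14100 to 37500 CPM in Apoe-/- and 10900 to 34200 CPM in Apoe-/-Mif-/- libraries at 42 weeks and T and NK cell markers to 59.5 to 702 and 57.6 to 291 CPM; the part of cell makeup was not tested.

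**Figure D3:**
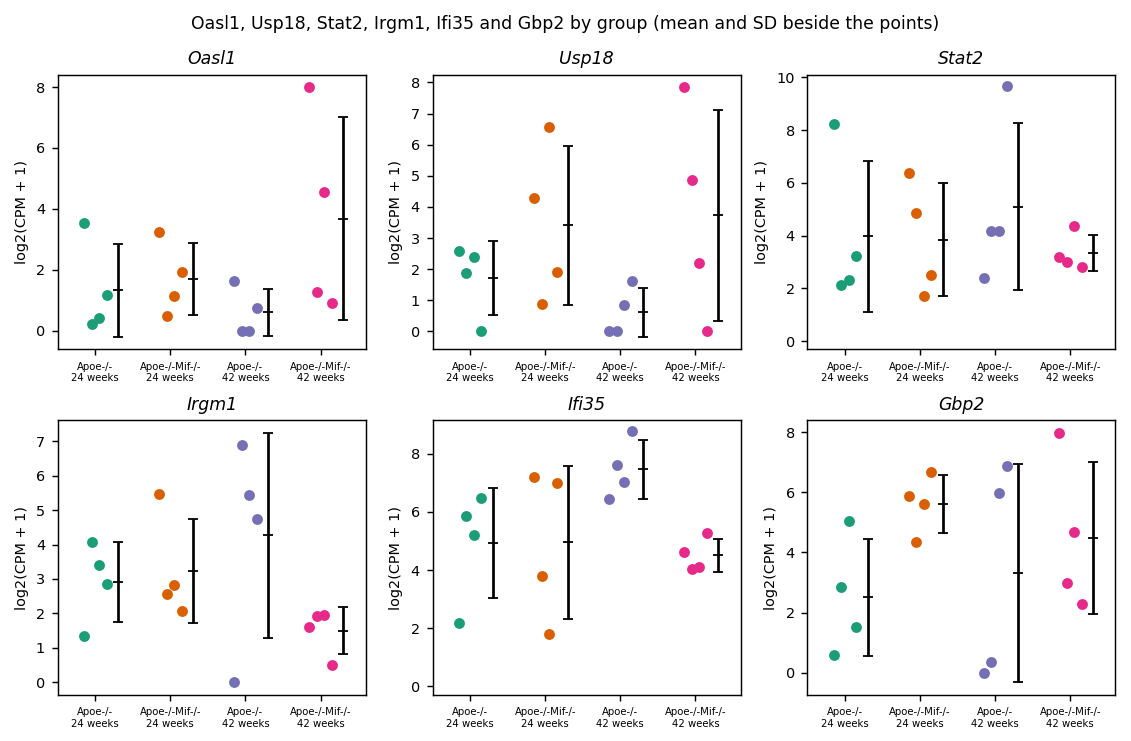
Levels as log2(CPM + 1) of 6 members in the 4 groups; points are libraries, bars beside them the mean and SD (n = 4). Oasl1 and Usp18 are each high in 2 of the 4 Apoe-/-Mif-/- libraries at 42 weeks, and the 4 Ifi35 points of Apoe-/- mice at 42 weeks lie above the 4 of Apoe-/-Mif-/- mice.

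The second question was how the genes compared between 24 and 42 weeks of diet. All mice began the diet at the same age, so those on it for 42 weeks were also older. Age and diet duration thus cannot be told apart in any comparison between durations. In Apoe-/- mice 0 of 23 members were called by edgeR, as were 0% of all genes. Irf7, Oas2, Igtp and Rtp4 had an unadjusted p under 0.05, all with lower means at 42 weeks, where 12.2% of all genes had such a p, and DESeq2 called Irf7 alone among members and 3.68% of all genes. The median log2 difference, 42 against 24 weeks, was -0.73 over the 23 members (8 positive, 15 negative), -1.17 over the antiviral genes and 0.34 over the gamma type, beside -0.12 over all genes. When only these 8 libraries were filtered and fitted, the median of the members that passed was 0.26. Those members could differ from the 23, and the cause of the change in sign was not tested.

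Irf7 averaged 77.5 ± 150.0 CPM at 24 weeks and 2.87 ± 3.72 at 42 weeks in Apoe-/- mice (log2 difference -4.95, SE 1.81, edgeR adjusted p = 0.322). Without library 1 at 24 weeks, the library highest in brown adipocyte markers, the difference was 0.02 (edgeR adjusted p = 0.999). Oas2, which makes the oligoadenylates that activate RNase L, had 121, 0.169, 2.29 and 25.6 CPM in Apoe-/- libraries at 24 weeks (log2 difference -4.49, SE 1.89, edgeR adjusted p = 0.341), and the difference was -2.48 without the same library. Igtp had 0, 0, 0.260 and 1.40 CPM at 42 weeks in Apoe-/- mice, 3 counts against 120 at 24 weeks. The rate at 24 weeks was 18.0 times that at 42 weeks (exact 95% interval 6.02 to 88.6, counting error only), and the log2 difference was -4.55 (SE 1.94, edgeR adjusted p = 0.346).

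Oas1a, another synthetase of the same gene cluster, was the member whose Apoe-/- groups did not overlap, where 4.16% of all genes had groups apart. It had 3.03, 10.6, 12.5 and 9.69 CPM at 24 weeks and 2.11, 0.591, 2.34 and 0.698 at 42 weeks (log2 difference -2.66, SE 1.59, edgeR adjusted p = 0.516). Its neighbour Oas1g shares 40.9% of the 100-base windows of Oas1a, so that the authors' counting could split reads between them.

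In Apoe-/-Mif-/- mice 0 of 23 members were called by edgeR (0.122% of all genes), 4 had an unadjusted p under 0.05 (13.1% of all genes), and DESeq2 called Igtp, Oas1a and Oasl1 among members and 5.28% of all genes. The median log2 difference of the 23 was -0.81 (8 positive, 15 negative) beside 0.12 over all genes. Igtp had 2.06, 0, 0.718 and 0.860 CPM at 42 weeks against the values of up to 174.9 given above for 24 weeks (log2 difference -5.92, SE 1.97, edgeR adjusted p = 0.223). Oas1a had 28.8, 36.7, 72.7 and 2.77 CPM at 24 weeks and 1.54, 0, 3.11 and 0.860 at 42 weeks (log2 difference -4.54, SE 1.68, edgeR adjusted p = 0.26). In both genes 3 of the 4 libraries at 24 weeks lay above every library at 42 weeks.

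Oasl1 went the other way in Apoe-/-Mif-/- mice, with a log2 difference of 4.46 (SE 1.90, edgeR adjusted p = 0.319) that was 1.35 without library 1 at 42 weeks. Irf7 and Irgm1 were the members whose groups did not overlap between durations in this genotype, both lower at 42 weeks, where 4.38% of all genes had groups apart. Their log2 differences were -3.33 (SE 1.65, edgeR adjusted p = 0.384) and -2.80 (SE 1.61, edgeR adjusted p = 0.461). Oas2 had 39.3, 1.44, 21.5 and 295 CPM in the 24-week libraries of this genotype. In this comparison plate row, like age, goes with duration and cannot be told apart from it.

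Both durations were also compared over the 2 genotypes together, a contrast added after seeing the data that reuses the same libraries. Again edgeR called 0 of 23 members (0.0376% of all genes), 7 had an unadjusted p under 0.05 (13.6% of all genes) and DESeq2 called Igtp, Irf7 and Oas1a and 4.67% of all genes. Igtp averaged 35.7 CPM over the 8 libraries at 24 weeks and 0.661 over the 8 at 42 weeks, with at most 1 count in 5 of the 16 libraries. Its log2 difference was -5.24 (SE 1.38, edgeR unadjusted p = 0.00053, adjusted p = 0.103), with adjusted p between 0.00267 and 0.597 over the alternatives. Irf7 differed by -4.14 (SE 1.23, edgeR adjusted p = 0.154), or -1.67 without Apoe-/- library 1 at 24 weeks, and Oas1a by -3.60 (SE 1.15, edgeR adjusted p = 0.171). Psmb8 and Zbp1 had higher means at 42 weeks, with log2 differences of 1.57 (SE 0.71, edgeR adjusted p = 0.315) and 2.88 (SE 1.23, edgeR adjusted p = 0.291).

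**Figure D4:**
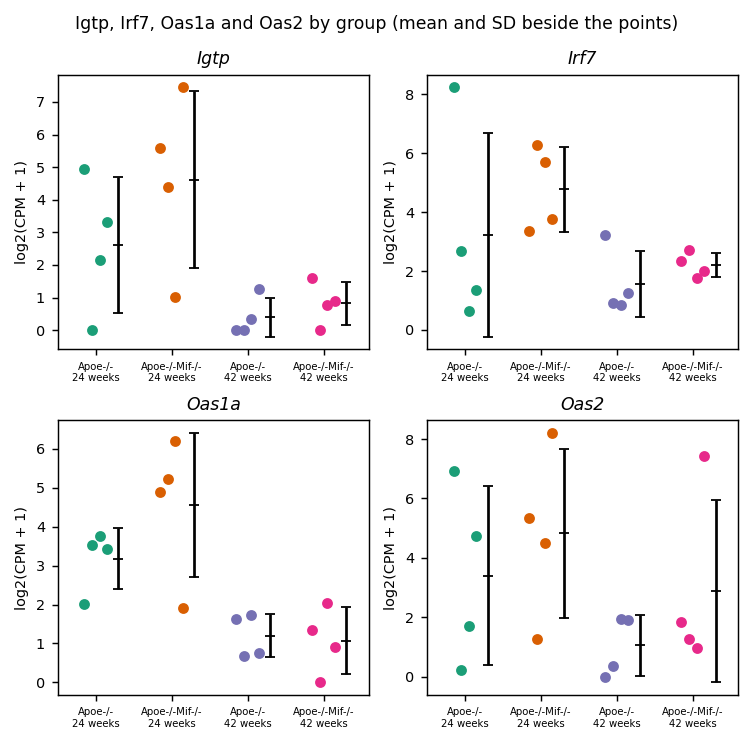
Levels as log2(CPM + 1) of Igtp, Irf7, Oas1a and Oas2 in the 4 groups; points are libraries, bars beside them the mean and SD (n = 4). Most 24-week points lie above the 42-week points for Igtp and Oas1a, and single libraries stand high for Irf7 and Oas2.

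Beside the duration values, macrophage markers summed to a median of 6670 CPM in Apoe-/- and 12300 CPM in Apoe-/-Mif-/- mice at 24 weeks and 17400 and 16100 CPM at 42 weeks. T and NK cell markers had medians of 93.3, 98, 218 and 93.0 CPM in the same order, but means of 1340, 106, 299 and 134 CPM, since 1 Apoe-/- library at 24 weeks held 5180. In Apoe-/- mice 7 of the 9 tested T and NK cell markers had negative fitted differences, 42 against 24 weeks (median -4.05, 5 at an unadjusted p under 0.05). Of the other lists in that genotype, all 5 tested erythroid markers had positive differences (median 3.76), while all 5 brown adipocyte markers (median -4.61) and 5 of 7 striated muscle markers (median -5.77) had negative ones. In Apoe-/-Mif-/- mice all 5 white adipocyte markers (median 5.36, 1 called by edgeR) and all 5 brown adipocyte markers (median 4.24) had positive differences. The part of these cell types in the members' differences was not tested.

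Whether the effect of Mif loss differed between durations was tested by the interaction, in which age again goes with duration. No member passed in edgeR (0 of 23, with 0.686% of all genes called), 3 had an unadjusted p under 0.05 (14.2% of all genes), and DESeq2 called Oasl1 alone among members and 5.11% of all genes. The interaction term was 7.16 for Oasl1 (SE 2.75, edgeR adjusted p = 0.215), -5.28 for Irgm1 (SE 2.24, edgeR adjusted p = 0.27) and -3.85 for Ifi35 (SE 1.69, edgeR adjusted p = 0.284), in log2 units. The median over the 23 was 0.36 beside 0.26 over all genes. Of the cell type markers, edgeR called 4 of 5 brown and 1 of 5 white adipocyte, 4 of 7 striated muscle and 1 of 7 endothelial. It called 0 of 14 macrophage and 0 of 9 T and NK cell markers. The part of cell makeup in the members' interaction terms was not tested.

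**Figure D5:**
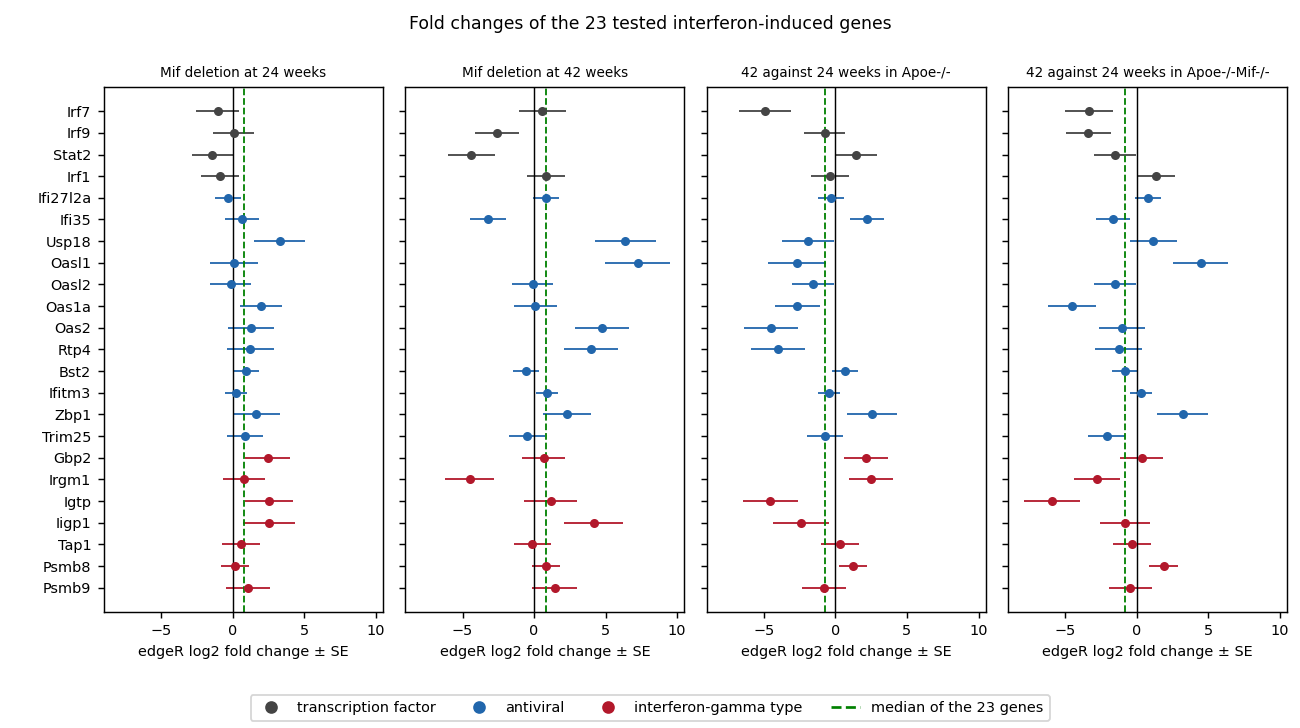
Fitted log2 differences with their standard errors (edgeR) for the 23 members that passed the filter in the 4 pairwise comparisons, coloured by class; the dashed line is their median. The medians are 0.77 and 0.83 for loss of Mif at 24 and 42 weeks and -0.73 and -0.81 for 42 against 24 weeks, and the comparisons share libraries.

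Among the other genes of the pathway, 7 of the 9 listed ligands were not detected. Ifnb1, Ifna1, Ifna2, Ifna4, Ifng, Ifnk and Ifne had 0 counts among 52140868, which allows up to 0.0576 CPM over all libraries. Ifnl2 and Ifnl3, a pair of similar type III interferon genes, had 221 and 258 counts and did not pass the filter. All 14 receptor and signalling genes, 11 of the 17 nucleic acid sensing genes with a row and 50 of 73 other interferon-induced genes were tested, and edgeR called 0 of them in any of the 6 comparisons; at an unadjusted p under 0.05, the highest number in a comparison was 1 of 14, 3 of 11 (durations averaged over genotypes, 13.6% of all genes) and 8 of 50 (Mif loss at 42 weeks, 17.3% of all genes). The share of all genes called by edgeR was 0% to 0.686% in these comparisons.

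By the smallest p, the receptor chain Ifnar1 averaged 46.0 ± 29.0 and 32.9 ± 17.7 CPM (SD, n = 4) in Apoe-/- and Apoe-/-Mif-/- mice at 24 weeks and 2.89 ± 1.96 and 12.1 ± 18.3 at 42 weeks (log2 difference averaged over genotypes -2.73, SE 1.05, edgeR adjusted p = 0.245). Mavs, the adaptor of RNA sensing, averaged 85.0 ± 70.2, 25.3 ± 26.2, 3.87 ± 3.53 and 6.98 ± 8.30 CPM in the same order (-3.11, SE 1.06, edgeR adjusted p = 0.198). Helz2, an interferon-induced helicase, averaged 83.1 ± 150.0, 79.9 ± 110.0, 5.46 ± 4.62 and 2.64 ± 2.09 CPM (-4.45, SE 1.2, edgeR adjusted p = 0.104). The SD exceeded the mean for Helz2 in both groups at 24 weeks. In Apoe-/-Mif-/- mice it also did so for Mavs at both durations and for Ifnar1 at 42 weeks.

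Tdrd7, an interferon-induced inhibitor of autophagy, came nearest to the threshold in the interaction (-9.44, SE 2.47, edgeR adjusted p = 0.0608). It averaged 1.83 ± 1.74 and 29.6 ± 35.8 CPM in Apoe-/- and Apoe-/-Mif-/- mice at 24 weeks and 117 ± 210.0 and 2.84 ± 2.9 at 42 weeks. Cd274, which encodes the checkpoint ligand PD-L1, averaged 0.204 ± 0.249, 1.86 ± 1.69, 53.2 ± 70.4 and 1.85 ± 1.76 CPM (42 against 24 weeks in Apoe-/- mice 8.07, SE 2.16, edgeR adjusted p = 0.322). Parp14, an ADP-ribosyltransferase, averaged 160 ± 190.0 CPM in Apoe-/-Mif-/- and 5.94 ± 5.19 in Apoe-/- mice at 42 weeks (4.76, SE 1.62, edgeR adjusted p = 0.176).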

How the data were processed

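Per the labels' protocols, libraries were made from 1 ng of RNA by Smart-seq2 and sequenced as 100 bp read pairs. Per the submitters' processing notes, the authors used cutadapt 1.18, Trim Galore 0.6.4, FastQC 0.11.5 and STAR 2.5.2b with build GRCm39; the counting program and annotation are not given in the sources used here. The authors deposited whole-number counts per gene symbol, and a table of variance-stabilised values on a log2 scale for the 9578 genes that reach 20 counts in 4 or more libraries, used here as an alternative (22 members). A row with a blank name (at most 0.00257% of a library's counts) and 2 reporter rows were left out.

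Groups came from the genotype and diet labels. The quasi-likelihood test of edgeR 4.0.16 (R 4.3.3) was run on the counts after TMM scaling and filterByExpr (minimum count 10, total 15) in 1 fit over all 16 libraries (12 residual degrees of freedom). P-values were adjusted by Benjamini-Hochberg over 10634 genes, with a threshold of 0.05. DESeq2 1.42.0, limma 3.58.1 (voom and the deposited log2 values), other scaling and filters, and leaving out each library were alternatives. The script was tested on simulated data. CPM values were computed here as deposited counts over library total times TMM factor, per 1000000. A pseudocount of 1 was used for log2(CPM + 1).

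The members and lists were chosen with earlier results of these data known. Values in every library were given for members called by edgeR, for the 3 smallest p in each comparison, for 11 members set by role and for members with over 50% of their CPM in 1 library; of other pathway genes, at most the 2 smallest p per list and comparison were named. Rtp4, Psmb9, Oasl2, Trim25, Irf9 and Ifi27l2a are given in part or by ranges. A separate mouse is named for each library, so p-values measure the spread between mice. Without molecular identifiers, intervals and the limit that a count of 0 allows (3 counts) cover counting error only.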

Additional observations from a re-analysis of the deposited data

Results flagged for a closer look

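Oas2 in library 4 of the Apoe-/-Mif-/- mice at 42 weeks stood at 172 CPM, while the other 3 libraries of its group lay between 0.958 and 2.57 CPM. On the log2(CPM + 1) scale the gap to the nearest of them was 0.866 of the group's range, above Dixon's 95% critical value for 4 samples. Chance passes that value in about 1 in 20 groups, and 44 groups were examined. The same library held 43 of the counts of Rsad2 and 57 of those of Ifi44.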

How the results depend on the processing

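Of the 18 gene and comparison pairs named by rule, 286 alternative values kept the direction and the side of the threshold, 1 kept the direction with no adjusted p (Stat2, Mif loss at 42 weeks, -4.691 in DESeq2) and 11 passed it, 10 of them in DESeq2 and 1 without a filter (Igtp, durations averaged over genotypes, -5.25, adjusted p = 0.0303). The pair that turned was Irf7 between durations in Apoe-/- mice, which ranged from -6.193 to 0.016 with 1 library left out, the latter without library 1 at 24 weeks. Members called were 0 under all settings but these: DESeq2 called 4 (Mif loss at 42 weeks), 1 (duration in Apoe-/-), 3 (duration in Apoe-/-Mif-/-), 1 (interaction) and 3 (durations averaged), and 1 was called without a filter in the last. The median log2 difference of the members moved to 0.15 (Mif loss at 42 weeks) and 0.258 (duration in Apoe-/-) when only the groups compared were fitted, and for the interaction to -0.26 without a filter and -0.865 with voom. With 1 library left out at a time, the medians ranged from 0.167 to 0.924 and from 0.545 to 1.184 for Mif loss at 24 and 42 weeks, from -1.978 to -0.118 and from -1.394 to -0.195 for duration in Apoe-/- and Apoe-/-Mif-/-, from -1.06 to 0.915 for the interaction and from -1.017 to 0.029 averaged. Fits to fewer libraries reran the filter, and another setting used none, so the members behind these medians could differ. With CPM by library total, 2 members had groups apart between durations in Apoe-/- (Ifi35 and Oas1a) and 1 in Apoe-/-Mif-/- (Irf7). The Mif difference ranged from -3.72 to -3.186 at 24 weeks and from -4.432 to -3.209 at 42 weeks (-3.936, -3.822, -3.209 and -3.751 with 1 deleted mouse left out, exact permutation p = 0.0571 in each). Over all genes the calls of edgeR, in the order of the report 5, 0, 0, 13, 4 and 73, became 117, 150, 18, 419, 368 and 426 without a filter and 0 in each with voom, and DESeq2 called 210, 902, 391, 562, 497 and 543; the cause of these differences was not tested. No paired analysis was possible because the labels give no replicate numbers that the groups share. Depth limits the sparse members: the shallowest library had 7 members with at least 10 counts.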

Other observations

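The type III interferon genes had most of their counts in 1 artery. Library 3 of the Apoe-/- mice at 24 weeks, the deepest, had 207 counts of Ifnl2 (22.5 CPM, 50.1% of its CPM summed over libraries) and 251 of Ifnl3 (27.3 CPM, 78.7%), against at most 10 and 2 counts in any other library. The same library held 582 counts of Ifih1, the sensor MDA5 (67.6% of its summed CPM). It also held 1106 counts of Irf9 (29.6%) and 39 of Isg15 (4.25 CPM, 24.9%). These 3 members were highest in this library, while Irf7 had 5 counts and Mx1, Mx2 and Rsad2 had 0 there. The 10 counts of Ifnl2 in Apoe-/- library 1 at 42 weeks amount to 21.1 CPM in the shallowest library. These libraries were noticed after their values were seen, with no test, and similar sequence in Ifnl2 and Ifnl3 leaves the split of reads between them uncertain.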
